A study of Bos taurus with 29 samples.

Results

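Transcripts of 41 enzymes of central carbon metabolism were followed in single cattle oocytes: the steps of glycolysis and lactate dehydrogenase, the pentose phosphate pathway, the pyruvate dehydrogenase complex, and the citric acid cycle with the cytosolic counterparts of some of its enzymes. The enzymes were taken by name, from a list drawn up with earlier results of these data known. Of the 41, 40 had a row among the 13502 genes of the table, and PFKL, the liver form of phosphofructokinase, was not analysed here. Of those 40, 38 reached 1 CPM (reads scaled to the library total, per 1000000) in at least 6 libraries, as did 11852 genes in all. PFKM (the muscle form of phosphofructokinase) and TPI1 (triosephosphate isomerase) lay below that level.

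Glycolysis splits glucose into pyruvate, and lactate dehydrogenase interconverts pyruvate and lactate. The pentose phosphate pathway draws glucose 6-phosphate aside and yields NADPH, which keeps glutathione reduced, and ribose 5-phosphate for nucleotides. The pyruvate dehydrogenase complex carries pyruvate carbon into the citric acid cycle of the mitochondria, which feeds respiration. Mammalian oocytes are known for using glucose poorly by themselves: the surrounding cumulus cells break it down and pass pyruvate to the oocyte, which oxidises it in its mitochondria. A fully grown oocyte also makes little new RNA as it matures, so its messenger RNAs are stored, translated or removed.

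The CNP_IVM group held 7 metaphase II (MII) oocytes whose cumulus-oocyte complexes were held for 6 h in medium that lacked EGF and contained C-type natriuretic peptide (CNP, 200 nM), and then 22 h in maturation medium with EGF and FSH. The IVM group held 8 MII oocytes matured for 22 h in the same medium with no earlier culture. The GV group held 7 germinal vesicle oocytes, which are arrested before meiosis resumes and were stripped of cumulus cells when collected. All were wild type and came by follicle aspiration from donors given FSH, and MII was judged by the polar body. Another 7 samples that the labels describe were not analysed here. CNP is a follicular peptide that keeps meiosis arrested through cyclic GMP. Culture took 28 h in all for CNP_IVM and 22 h for IVM oocytes, so CNP and time in culture cannot be told apart.

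A library stands for a single oocyte whose donor and culture are not named, so each group counted as 1 sample and no test was run. Values are described as the lowest, median and highest oocyte of a group, which is the spread between these oocytes and not between animals. A difference is the log2 ratio of group means of CPM, with 1 CPM added to each mean, and is called at least 2-fold when it passes 1 in either direction. CPM carries no gene length, so levels of different genes are not compared. A CPM value is a share of the reads of a library whose synthesis starts at poly(A) tails. The amount of a transcript, the length of its tail and the size of the rest of the library cannot be told apart.

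Libraries held 20159662 to 39340040 reads, so that 0 reads allowed a level of up to 0.0763 to 0.149 CPM. Summed oocyte markers (all 12 of 12 with a row) reached 41768 to 59721 CPM in CNP_IVM, 29586 to 49183 CPM in IVM and 23585 to 28240 CPM in GV oocytes. Of 26 cumulus and granulosa markers, 21 had a row and 16 passed the level above, and they summed to 287 to 367 CPM in CNP_IVM, 421 to 735 CPM in IVM and 704 to 1279 CPM in GV oocytes. The FSH receptor FSHR and the steroidogenic enzyme CYP11A1 had medians of at most 0.295 CPM in any group. Other markers were higher in single GV oocytes. INHA reached 59.7 CPM and FST 42.0 CPM in GV replicate 6, and SERPINE2 reached 185 CPM and PGR 38.3 CPM in GV replicate 9. STAR, a steroidogenic gene, averaged 93.9 CPM in CNP_IVM, 316 CPM in IVM and 657 CPM in GV oocytes. Summed blood and immune markers, of which 6 of 13 had a row, were 3.53 to 25.7 CPM in CNP_IVM, 8.42 to 46.9 CPM in IVM and 173 to 362 CPM in GV oocytes, mostly from VWF, an endothelial gene. Of all 11852 genes, 15.3% were at least 2-fold higher and 42.0% lower in CNP_IVM over GV, and 15.9% and 33.0% in IVM over GV. Of the 16 cumulus and granulosa markers that passed the level above, 2 were higher and 7 lower in CNP_IVM over GV. In IVM over GV, 3 of these markers were higher and 6 lower. Those higher in both were HAS2, a hyaluronan synthase, by 2.78 in CNP_IVM and 2.17 in IVM on the log2 scale, and PTGS2, a prostaglandin synthase, by 1.42 and 1.44. The cumulus and granulosa sum and the blood and immune sum order the groups as the glycolytic enzymes below do. The oocyte marker sum runs the other way. The cumulus and granulosa sum averaged 322, 570 and 896 CPM in CNP_IVM, IVM and GV, and STAR was its largest part in IVM and GV. BTG4 alone averaged 32075, 19952 and 9807 CPM of mean oocyte marker sums of 48647, 36775 and 26545 CPM. Of the 12 oocyte markers, 3 were at least 2-fold higher and 6 lower in CNP_IVM over GV. In IVM over GV, 5 were higher and 4 lower. The part of the markers in the differences was not tested.

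GV replicate 9 stood apart. Its title says GV while its treatment label says in vitro maturation, and it was grouped by title. It had 9381 genes at 1 CPM or more, against 11311 to 11798 in the other 6 GV oocytes, and it was the highest GV oocyte for 12 and the lowest for 16 of the 40 enzymes. Where an enzyme's call rests on it, values are given with and without it.

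Transcripts of most enzymes were lower at MII than at GV, while a small set, mostly of mitochondrial enzymes, was higher. Between the MII groups, most enzymes had a lower mean in CNP_IVM than in IVM, but most of these differences stayed under 2-fold. In CNP_IVM over GV, 4 of 38 enzymes were higher and 26 lower by 2-fold or more, against 15.3% and 42.0% of all 11852 genes, with a median log2 difference of -1.79 for the enzymes and -0.61 for all genes. The same counts in IVM over GV were 6 higher and 20 lower, against 15.9% and 33.0% of all genes, with medians of -1.20 and -0.28. The shares of the 38 enzymes that were lower, 68.4% in CNP_IVM and 52.6% in IVM, lay above those of all genes, and the shares that were higher, 10.5% and 15.8%, lay below or near them. Of all genes past 2-fold, the share that was higher was 26.8% in CNP_IVM over GV and 32.4% in IVM over GV as deposited, 43.4% and 43.9% with factors from the trimmed mean of M values (TMM), and 53.1% and 52.6% with quantile normalization. The median of the enzymes minus that of all genes was -1.18 in CNP_IVM over GV and -0.91 in IVM over GV as deposited, -1.16 and -0.91 with TMM factors, and -1.29 and -1.22 with quantile normalization.

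Without GV replicate 9, CNP_IVM over GV had 4 enzymes higher and 23 lower with a median of -1.59, and IVM over GV had 5 higher and 17 lower with a median of -0.85. Of all genes, 14.96% were then higher and 40.4% lower in CNP_IVM over GV with a median of -0.52, and 16.4% higher and 31.7% lower in IVM over GV with a median of -0.20. In CNP_IVM over IVM, 0 of the 38 enzymes were higher and 11 were lower by 2-fold or more, against 1.86% and 14.8% of all genes, with a median of -0.65 for the enzymes and -0.28 for all genes. The comparisons share their groups, so they do not support one another. With all oocytes, 4 of the 38 enzymes were higher than GV in both MII groups and 20 were lower in both. The remaining 14 included 6 that were lower in CNP_IVM alone, SUCLA2 and HK2, which were higher in IVM alone, and 6 that were under 2-fold in both. Without GV replicate 9, DLAT was no longer higher in both, and GPI, PFKP and OGDH were no longer lower in both. How many of all genes were higher or lower in both MII groups was not counted.

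**Figure D1:**
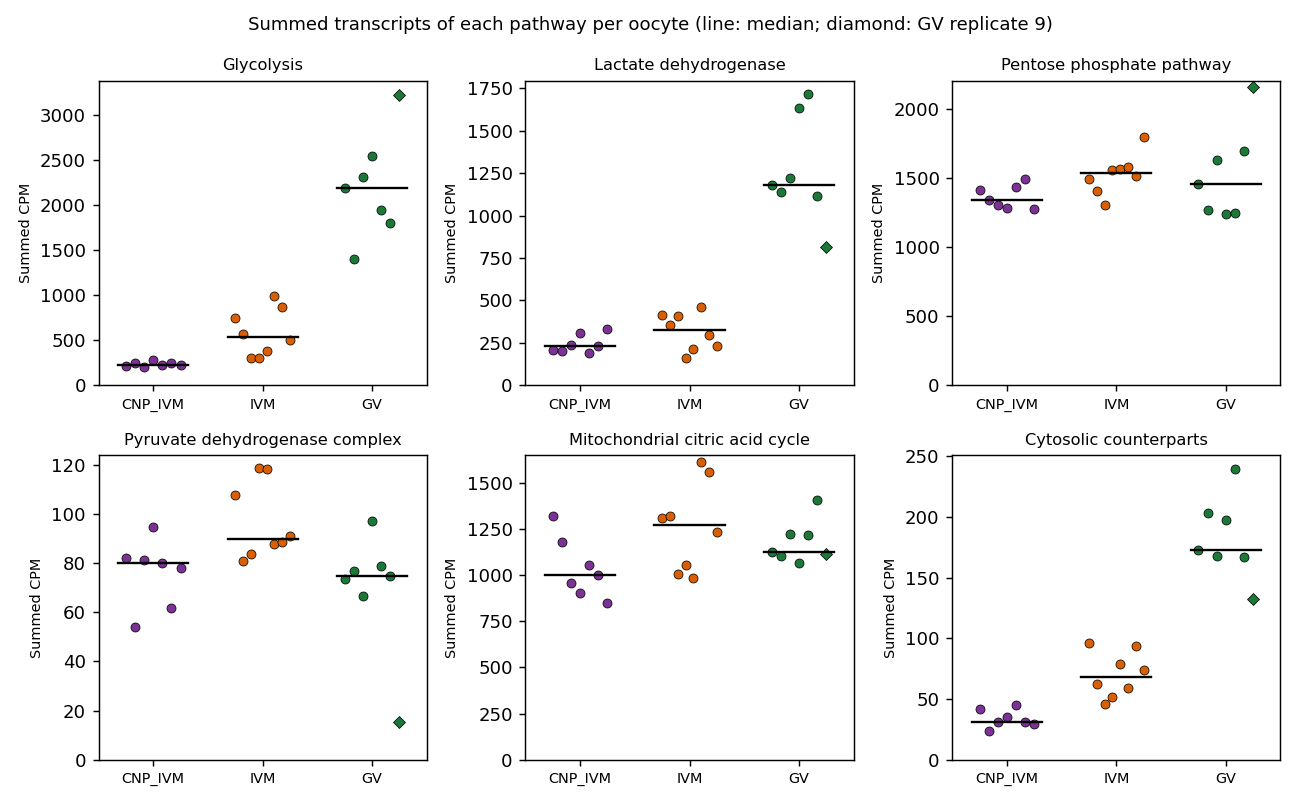
Summed CPM of the enzymes of each pathway (vertical axis, 1 panel per pathway) in each CNP_IVM, IVM and GV oocyte, with the group median as a line and GV replicate 9 as a diamond. In CPM as deposited, glycolysis shows CNP_IVM oocytes at 207 to 280 CPM, below every IVM oocyte (301 to 991 CPM). IVM oocytes in turn lie below every GV oocyte (1402 to 3225 CPM). Sums of the cytosolic counterparts are also separate between the groups, and those of lactate dehydrogenase are lower in every MII oocyte than in any GV oocyte. Sums of the pentose phosphate pathway and of the citric acid cycle overlap between the groups.

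Summed transcripts of the glycolytic enzymes separated the 3 groups in CPM as deposited. The 13 enzymes measured summed to 236 ± 24.5 CPM in CNP_IVM (SD, n = 7 oocytes), 584 ± 263 CPM in IVM (SD, n = 8) and 2203 ± 583 CPM in GV oocytes (SD, n = 7). No CNP_IVM oocyte reached the lowest IVM oocyte, and no IVM oocyte reached the lowest GV oocyte. The separation of CNP_IVM from IVM depends on scaling. CNP_IVM replicate 4 had 280 CPM and a TMM factor of 0.776, and IVM replicate 6 had 301 CPM and a factor of 0.878. Divided by these factors, their sums change order and the ranges of CNP_IVM and IVM overlap. Separate sums as deposited were not particular to glycolysis. The cytosolic counterparts ACO1, IDH1 and MDH1 summed to 23.6 to 45.2 CPM in CNP_IVM, 45.5 to 96.4 CPM in IVM and 132 to 240 CPM in GV oocytes. Of the 11 glycolytic enzymes past the filter, 10 were at least 2-fold lower and none higher in CNP_IVM over GV, against 42.0% and 15.3% of all genes. In IVM over GV, 8 were lower and 1 higher, against 33.0% and 15.9% of all genes. Without GV replicate 9, 8 were lower in CNP_IVM and 6 in IVM, against 40.4% and 31.7% of all genes.

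HK1 phosphorylates glucose on entry and was low in both MII groups. It had 14.3, 18.96 and 24.3 CPM (lowest, median and highest oocyte) in CNP_IVM, 17.5, 21.2 and 37.01 CPM in IVM, and 153, 208 and 289 CPM in GV oocytes. Every MII oocyte lay below every GV oocyte, with log2 differences of -3.45 in CNP_IVM and -3.11 in IVM over GV. HK2, the insulin-regulated form in other tissues, was scarce throughout, with medians of 1.42 CPM in CNP_IVM, 2.44 CPM in IVM and 0.563 CPM in GV oocytes. Its groups overlapped, and its log2 difference of 1.33 in IVM over GV dropped to 0.96 without IVM replicate 8 and to 0.57 with a pseudocount of 5 CPM. The CNP_IVM over GV value was 0.76, and passed 2-fold with TMM factors (1.11), quantile normalization (1.73) and a pseudocount of 0.1 CPM (1.22).

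GPI turns glucose 6-phosphate into fructose 6-phosphate and had 22.4, 32.02 and 55.1 CPM in CNP_IVM, 45.3, 131 and 180.1 CPM in IVM, and 179.8, 234 and 690.2 CPM in GV oocytes. The highest GV value is replicate 9, and without it the log2 difference in IVM over GV was -0.997, just short of 2-fold, against -1.36 with it. In CNP_IVM over GV it was -3.11 with that oocyte and -2.75 without it. The next, committed step is phosphofructokinase, of which PFKM and PFKP were read and PFKL was not analysed. Transcripts of the forms read were low, other than PFKP in GV replicate 9. PFKM had reads in 2 of 7 CNP_IVM, 2 of 8 IVM and 6 of 7 GV oocytes and never passed 1.88 CPM. PFKP, the platelet form, had medians of 0.402 CPM in CNP_IVM, 0.737 CPM in IVM and 1.31 CPM in GV oocytes, and its differences of -3.08 in CNP_IVM and -3.14 in IVM over GV rested on 87.1 CPM in GV replicate 9. Without that oocyte they were -0.80 and -0.86.

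The aldolases split fructose 1,6-bisphosphate, and both were low at MII. ALDOA had 0.968, 2.44 and 3.36 CPM in CNP_IVM, 0.496, 7.86 and 17.3 CPM in IVM, and 26.5, 45.03 and 90.5 CPM in GV oocytes. ALDOC had 1.32, 3.47 and 8.11 CPM in CNP_IVM, 4.74, 12.8 and 19.9 CPM in IVM, and 44.6, 62.05 and 124 CPM in GV oocytes. For both genes the MII ranges lay wholly below the GV range, with log2 differences in CNP_IVM over GV of -3.89 for ALDOA and -4.02 for ALDOC. TPI1, which interconverts the triose phosphates, had a highest value of 0.231 CPM in CNP_IVM, 0.377 CPM in IVM and 4.52 CPM in GV oocytes.

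The later part of the pathway, from triose phosphate to pyruvate, showed a wide range of differences. GAPDH, which makes the first NADH and is often used as a reference gene, had 55.7, 85.4 and 111 CPM in CNP_IVM, 96.7, 186 and 451 CPM in IVM, and 613, 1033 and 1586 CPM in GV oocytes. Its log2 difference was -3.64 in CNP_IVM and -2.18 in IVM over GV, so that it was not level across these groups. Counting error is small beside the spread between oocytes: the pooled GAPDH reads gave 83.3 CPM in CNP_IVM (exact 95% Poisson interval 82.2 to 84.4), 243 CPM in IVM (241 to 245) and 1051 CPM in GV oocytes (1047 to 1055). Such intervals cover counting error only.

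ENO1, an enolase, had the lowest difference of the glycolytic enzymes against GV. It stood at 2.41, 6.95 and 20.9 CPM in CNP_IVM, 4.81, 15.1 and 37.2 CPM in IVM, and 169, 226 and 484 CPM in GV oocytes. The log2 differences over GV were -4.86 in CNP_IVM and -3.81 in IVM, and -4.65 and -3.60 without GV replicate 9. PGK1, which makes ATP at the step after GAPDH, was lower by less, with log2 differences of -1.68 in CNP_IVM and -1.82 in IVM over GV. With quantile normalization the PGK1 difference in CNP_IVM became -0.76, under 2-fold. No MII oocyte reached the lowest GV value of 15.2 CPM for PGK1.

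PGAM1 and PKM, the mutase before enolase and the kinase that yields pyruvate, differed least. PGAM1 had 29.4, 43.8 and 58.3 CPM in CNP_IVM, 68.99, 89.4 and 153 CPM in IVM, and 44.7, 72.1 and 405 CPM in GV oocytes, the last being replicate 9. Its log2 difference in CNP_IVM over GV was -1.44 with that oocyte and -0.68, under 2-fold, without it, and it was also under 2-fold with TMM factors (-0.79). In IVM over GV it was -0.22 with that oocyte and 0.53 without it. PKM had 15.9, 33.7 and 50.1 CPM in CNP_IVM, 32.1, 55.1 and 104 CPM in IVM, and 60.3, 88.02 and 181 CPM in GV oocytes. Its log2 difference over GV was -1.43 in CNP_IVM, whose oocytes all lay below the GV oocytes, and -0.55 in IVM, whose oocytes overlapped them. The PKM difference in CNP_IVM was -1.19 without GV replicate 9, and fell under 2-fold with TMM factors (-0.84) and with quantile normalization (-0.93). GAPDH, PGK1, TPI1, LDHA and other glycolytic genes have many processed copies in mammalian genomes, and how reads with several matches were counted is not given in the sources used here, so their single values are uncertain.

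**Figure D2:**
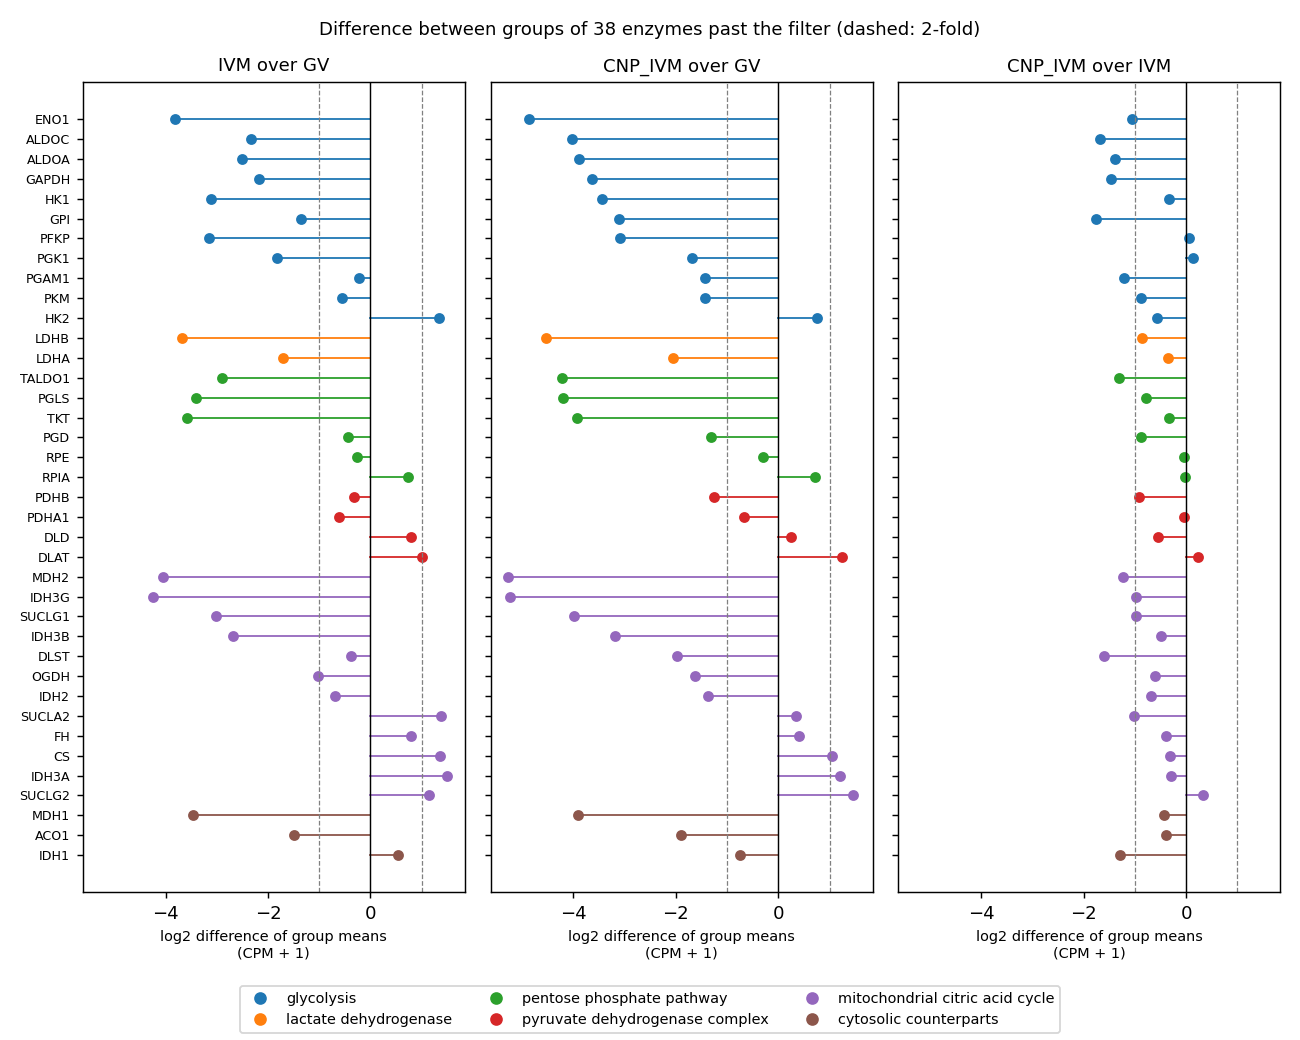
Log2 difference of group means (CPM + 1) for each of the 38 enzymes past the filter, coloured by pathway, with 1 panel each for IVM over GV, CNP_IVM over GV and CNP_IVM over IVM and dashed lines at 2-fold. Glycolytic enzymes lie mostly to the left of the line in the panels over GV, with ENO1 at -3.81 and -4.86, while IDH3A, CS, SUCLG2 and DLAT lie to the right of it in both.

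Lactate dehydrogenase is a tetramer of A and B chains, and the B chain prevails in tissues that take up lactate, such as heart. LDHA had 182, 220.4 and 318 CPM in CNP_IVM, 141, 295 and 442 CPM in IVM, and 679, 838 and 1431 CPM in GV oocytes. LDHB had 5.05, 11.5 and 19.9 CPM in CNP_IVM, 12.4, 19.1 and 37.2 CPM in IVM, and 139, 313 and 345 CPM in GV oocytes. Both chains lay below every GV oocyte in both MII groups. The log2 differences over GV were -2.06 for LDHA and -4.53 for LDHB in CNP_IVM, and -1.72 for LDHA and -3.68 for LDHB in IVM.

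The balance of the chains within an oocyte does not depend on library scaling. The ratio of LDHB to LDHA reads was 0.025, 0.0513 and 0.0686 in CNP_IVM, 0.0312, 0.0817 and 0.145 in IVM, and 0.199, 0.303 and 0.425 in GV oocytes. The MII ratios lay wholly below the GV ratios, so the B chain was lower than the A chain by more in each MII oocyte. LDHC, the chain best known from testis and not among the 41, averaged 99.2 ± 56.7 CPM in CNP_IVM, 339 ± 149 CPM in IVM and 442 ± 139 CPM in GV oocytes (SD, n = 7, 8 and 7).

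The pentose phosphate pathway was split between enzymes. Its 6 enzymes summed to 1364 ± 85.96 CPM in CNP_IVM, 1527 ± 144 CPM in IVM and 1528 ± 334 CPM in GV oocytes (SD, n = 7, 8 and 7), with overlapping ranges. That sum is mostly RPIA, which held a median of 85.7% of it in CNP_IVM, 76.5% in IVM and 52.3% in GV oocytes. Against GV, 4 of the 6 enzymes were at least 2-fold lower in CNP_IVM and 3 in IVM, and none was higher in either. Of all genes, 42.0% were lower and 15.3% higher in CNP_IVM over GV, and 33.0% and 15.9% in IVM over GV.

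PGLS, TKT and TALDO1 were the 3 enzymes lower in both MII groups. PGLS, the lactonase of the oxidative branch, had 3.19, 7.56 and 14.1 CPM in CNP_IVM, 4.94, 13.8 and 23.9 CPM in IVM, and 92.3, 163 and 198 CPM in GV oocytes. TALDO1, a transaldolase of the non-oxidative branch, had 9.11, 10.8 and 15.6 CPM in CNP_IVM, 14.9, 28.3 and 43.6 CPM in IVM, and 184, 240.1 and 264 CPM in GV oocytes. For both genes no MII oocyte approached the GV range, with log2 differences in CNP_IVM over GV of -4.20 for PGLS and -4.22 for TALDO1. TKT, the transketolase of the same branch, had at most 1.97 CPM in CNP_IVM and 3.16 CPM in IVM oocytes, with 0 reads in 1 of 7 and 2 of 8 of them, against 13.2 CPM or more in every GV oocyte.

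PGD, the dehydrogenase that makes NADPH and ribulose 5-phosphate, did not follow them. It had 92.7, 134 and 227 CPM in CNP_IVM, 134, 278 and 473 CPM in IVM, and 182, 233 and 1181 CPM in GV oocytes. The highest GV value was replicate 9, and leaving it out took the log2 difference over GV to -0.65 in CNP_IVM, against -1.32 with it, and to 0.24 in IVM, against -0.44 with it. With TMM factors PGD was at -0.68 in CNP_IVM over GV. RPIA, which isomerises ribulose 5-phosphate to ribose 5-phosphate, was higher at MII. It had 1067, 1127 and 1306 CPM in CNP_IVM, 1014, 1074 and 1429.6 CPM in IVM, and 460.1, 666 and 922 CPM in GV oocytes, so every MII oocyte was above every GV oocyte while the log2 differences of 0.72 in CNP_IVM and 0.73 in IVM stayed under 2-fold. With TMM factors they passed it, at 1.26 and 1.04. RPE, the epimerase of the same substrate, overlapped in all groups, with medians of 39.2 CPM in CNP_IVM, 50.3 CPM in IVM and 64.7 CPM in GV oocytes.

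The pyruvate dehydrogenase complex joins the E1 decarboxylase (PDHA1 and PDHB), the E2 core (DLAT) and E3 (DLD, which it shares with other complexes). Its 4 genes summed to 75.9 ± 13.7 CPM in CNP_IVM, 97.02 ± 15.4 CPM in IVM and 69.01 ± 25.4 CPM in GV oocytes (SD, n = 7, 8 and 7), where GV replicate 9 had only 15.4 CPM. Means of the E1 and E2 genes lay on opposite sides of GV. PDHA1 had 2.66, 8.58 and 18.04 CPM in CNP_IVM, 5.19, 8.72 and 12.2 CPM in IVM, and 0.599, 15.9 and 19.1 CPM in GV oocytes. Its groups overlapped and it stayed under 2-fold, at -0.67 in CNP_IVM and -0.62 in IVM over GV.

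PDHB had 0.502, 5.11 and 6.55 CPM in CNP_IVM, 5.55, 7.29 and 16.2 CPM in IVM, and 0, 12.4 and 17.3 CPM in GV oocytes. Its log2 difference in CNP_IVM over GV was -1.26, and -1.47 without GV replicate 9, the oocyte with 0 reads. The PDHB call ended with TMM factors (-0.80), quantile normalization (-0.24) and a pseudocount of 5 CPM (-0.84). DLAT had 13.5, 22.7 and 28.8 CPM in CNP_IVM, 11.5, 18.6 and 24.99 CPM in IVM, and 0.545, 9.09 and 13.01 CPM in GV oocytes. Every CNP_IVM oocyte was above every GV oocyte for DLAT, with a log2 difference of 1.25, or 1.06 without GV replicate 9 and 0.98 with a pseudocount of 5 CPM. In IVM over GV it was 1.01 and fell just under 2-fold without any one of GV replicates 4, 6 and 9 (0.99, 0.99 and 0.82) or IVM replicates 6, 8 and 10 (0.99, 0.94 and 0.98), with group medians (0.96) and with a pseudocount of 5 CPM (0.78).

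Within an oocyte the ratio of DLAT to PDHA1 reads was 1.57, 2.34 and 9.33 in CNP_IVM, 1.04, 2.01 and 3.67 in IVM, and 0.454, 0.666 and 0.909 in GV oocytes. The ranges of the MII groups lay above that of GV, replicate 9 included. DLD stayed under 2-fold, with medians of 40.04 CPM in CNP_IVM, 56.5 CPM in IVM and 31.7 CPM in GV oocytes, but passed it in IVM over GV with TMM factors (1.07) and quantile normalization (1.10).

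**Figure D3:**
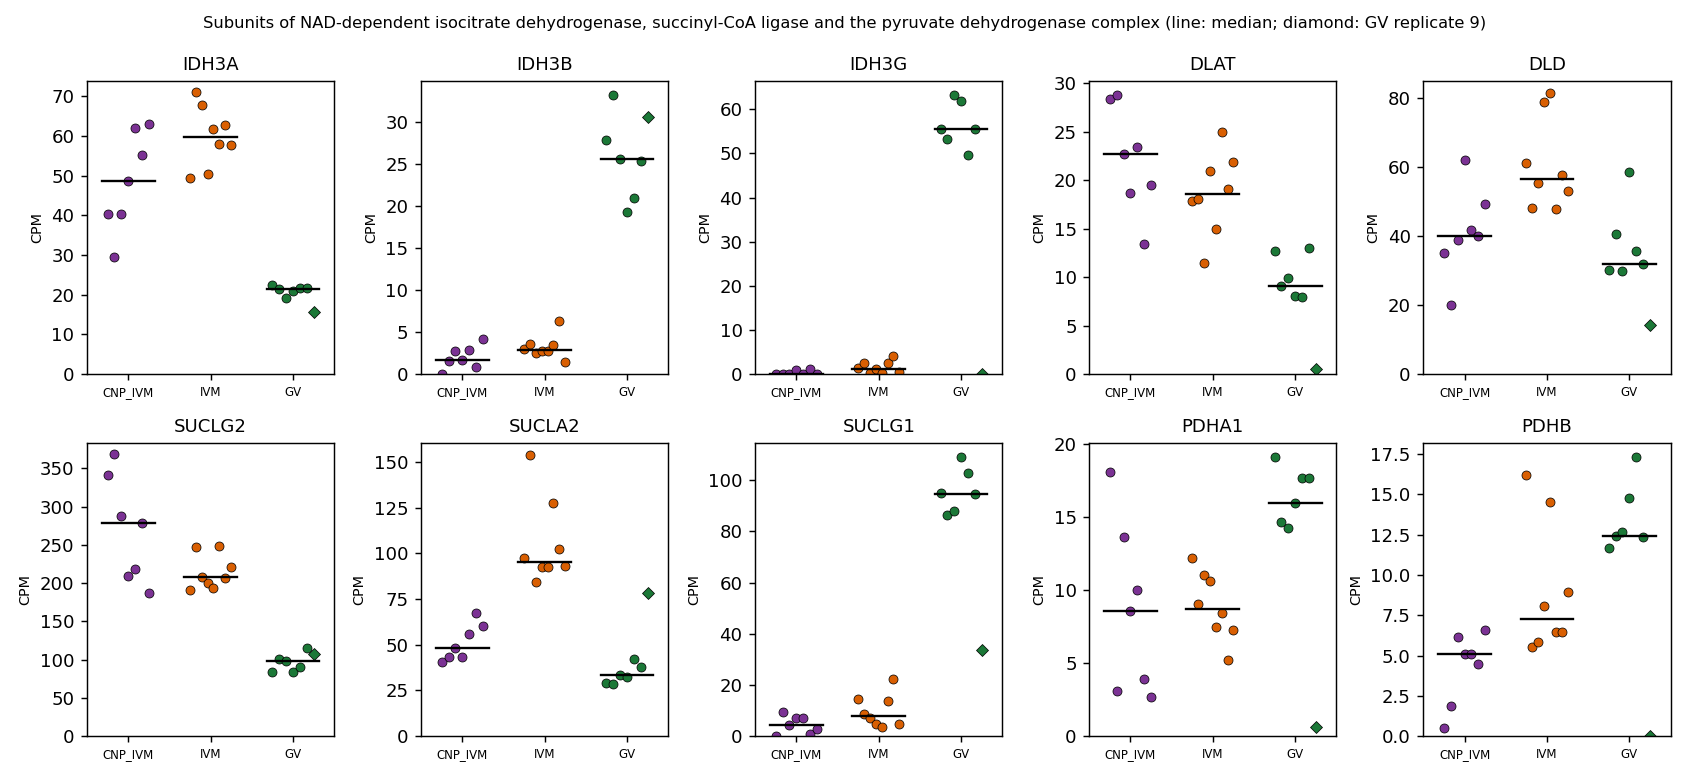
CPM per oocyte of 10 genes that encode parts of NAD-dependent isocitrate dehydrogenase, succinyl-CoA ligase and the pyruvate dehydrogenase complex, in CNP_IVM, IVM and GV oocytes, each panel with its own vertical axis, the median as a line and GV replicate 9 as a diamond. Subunits of the same enzyme move apart: IDH3A, SUCLG2 and DLAT are higher at MII, whereas IDH3B and SUCLG1 are lower, and IDH3G is lower than in every GV oocyte other than replicate 9.

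Against GV, the mitochondrial citric acid cycle held both the highest and the lowest differences of the set. Its 12 enzymes summed to 1039 ± 164 CPM in CNP_IVM, 1259.7 ± 239.6 CPM in IVM and 1181 ± 117 CPM in GV oocytes (SD, n = 7, 8 and 7), with overlapping ranges. In CNP_IVM over GV, 3 were at least 2-fold higher (SUCLG2, IDH3A and CS) and 7 lower, against 15.3% and 42.0% of all genes. In IVM over GV 4 were higher (those 3 and SUCLA2) and 5 lower, against 15.9% and 33.0% of all genes. With 12 genes, these counts are a description only. The overlapping sums thus cover genes that differ in opposite directions.

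Citrate synthase (CS), which brings acetyl-CoA into the cycle, had 193, 360.4 and 688 CPM in CNP_IVM, 287, 443 and 775 CPM in IVM, and 146, 182 and 264 CPM in GV oocytes. Every IVM oocyte was above every GV oocyte, and the CNP_IVM range overlapped that of GV. The log2 difference was 1.36 in IVM over GV. In CNP_IVM over GV it was 1.04 and fell under 2-fold without CNP_IVM replicate 1 (0.84), CNP_IVM replicate 2 (0.97), GV replicate 2 (0.99) or GV replicate 4 (0.99), and with group medians (0.98) or means of log2 values (0.97).

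NAD-dependent isocitrate dehydrogenase is built from an alpha, a beta and a gamma chain, and transcripts of the 3 chains parted. IDH3A, the catalytic alpha chain, had 29.6, 48.7 and 63.1 CPM in CNP_IVM, 49.4, 59.8 and 71.1 CPM in IVM, and 15.7, 21.3 and 22.5 CPM in GV oocytes. IDH3B had 0.0528, 1.70 and 4.12 CPM in CNP_IVM, 1.41, 2.89 and 6.27 CPM in IVM, and 19.3, 25.6 and 33.2 CPM in GV oocytes. IDH3A was above and IDH3B below every GV oocyte in both MII groups. The log2 differences over GV were 1.20 for IDH3A and -3.18 for IDH3B in CNP_IVM, and 1.50 for IDH3A and -2.69 for IDH3B in IVM.

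IDH3G had 0, 0.056 and 1.13 CPM in CNP_IVM, with 0 reads in 3 of 7 oocytes, 0.248, 1.25 and 4.10 CPM in IVM, and 0, 55.5 and 63.2 CPM in GV oocytes. The GV oocyte at 0 reads was replicate 9, and the other 6 had 49.7 CPM or more, so that replicate 9 resembled the MII oocytes for this gene. Replicate 9 did not do so for IDH3B, where it had 30.6 CPM, nor for IDH3A, where it had 15.7 CPM. The log2 differences of IDH3G over GV were -5.23 in CNP_IVM and -4.25 in IVM with replicate 9, and -5.45 and -4.47 without it. The ratio of IDH3B to IDH3A reads within an oocyte had a median of 0.0463 in CNP_IVM, 0.0528 in IVM and 1.24 in GV oocytes, and no MII oocyte passed 0.0997.

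IDH2, the NADP-dependent mitochondrial form, was near the limit throughout, with 0 reads in 5 of 7 CNP_IVM, 3 of 8 IVM and 1 of 7 GV oocytes and no value over 3.92 CPM. OGDH and DLST are the E1 and E2 parts of the oxoglutarate dehydrogenase complex. OGDH was low, with medians of 1.02 CPM in CNP_IVM, 2.01 CPM in IVM and 4.56 CPM in GV oocytes, and its log2 difference of -1.03 in IVM over GV became -0.65 without GV replicate 9 and -0.93 to -0.98 without IVM replicate 5, 6, 7 or 10. It was also under 2-fold in IVM over GV with TMM factors (-0.82), quantile normalization (-0.40), group medians (-0.89) and a pseudocount of 5 CPM (-0.56). The OGDH difference in CNP_IVM over GV was -1.63, and -0.49 with quantile normalization and -0.80 with a pseudocount of 5 CPM. DLST had 0.0528, 2.07 and 3.99 CPM in CNP_IVM, 3.51, 8.46 and 12.8 CPM in IVM, and 1.63, 9.60 and 18.7 CPM in GV oocytes. It was at least 2-fold lower in CNP_IVM than in GV oocytes, at -1.98, though at -0.97 with quantile normalization, and differed by -0.37 in IVM over GV.

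Succinyl-CoA ligase pairs the alpha chain SUCLG1 with a beta chain that sets its nucleotide, SUCLA2 for ATP or SUCLG2 for GTP. SUCLG1 had 0, 4.37 and 9.55 CPM in CNP_IVM, 3.62, 7.85 and 22.5 CPM in IVM, and 33.8, 94.4 and 109 CPM in GV oocytes. SUCLG2 had 187, 279 and 369 CPM in CNP_IVM, 191, 208 and 249 CPM in IVM, and 84.5, 97.7 and 115 CPM in GV oocytes. The shared alpha chain was thus below, and the GTP-type beta chain above, every GV oocyte in both MII groups. The log2 differences over GV were -3.98 for SUCLG1 and 1.47 for SUCLG2 in CNP_IVM, and -3.01 for SUCLG1 and 1.13 for SUCLG2 in IVM.

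SUCLA2 had 40.8, 48.2 and 67.5 CPM in CNP_IVM, 84.3, 95.2 and 154 CPM in IVM, and 28.7, 33.3 and 78.3 CPM in GV oocytes. It was 2-fold higher in IVM over GV, at 1.37, and differed by 0.34 in CNP_IVM over GV. The beta chains therefore parted between the MII groups: the ratio of SUCLG2 to SUCLA2 reads was 3.10, 4.83 and 8.57 in CNP_IVM, 1.60, 2.06 and 2.47 in IVM, and 1.37, 2.88 and 3.52 in GV oocytes. Every CNP_IVM oocyte had a higher ratio than every IVM oocyte, and library scaling does not enter this ratio.

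The cycle closes with fumarase and malate dehydrogenase. FH, fumarase, stayed under 2-fold, with medians of 264 CPM in CNP_IVM, 327 CPM in IVM and 210.0 CPM in GV oocytes, and all IVM oocytes lay above all GV oocytes. With TMM factors FH passed 2-fold in IVM over GV, at 1.06. MDH2, the mitochondrial malate dehydrogenase, had the lowest difference of any enzyme in CNP_IVM over GV, at -5.28, with a highest value of 17.2 CPM in CNP_IVM, 39.7 CPM in IVM and a lowest of 354 CPM in GV oocytes. The cytosolic form MDH1, its partner in the malate-aspartate shuttle, had 4.34, 6.93 and 10.95 CPM in CNP_IVM, 4.28, 8.69 and 20.6 CPM in IVM, and 67.3, 114 and 164 CPM in GV oocytes. Both forms lay below every GV oocyte in every MII oocyte.

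The other cytosolic enzymes differed from MDH1. ACO1, the cytosolic aconitase that also acts as an iron-sensing RNA-binding protein, had 2.72, 6.67 and 9.79 CPM in CNP_IVM, 5.97, 8.67 and 14.5 CPM in IVM, and 20.8, 25.2 and 39.2 CPM in GV oocytes. Its log2 differences over GV were -1.90 in CNP_IVM and -1.50 in IVM, with no overlap. IDH1, which makes NADPH in the cytosol, had 11.02, 19.6 and 27.04 CPM in CNP_IVM, 32.9, 51.6 and 66.2 CPM in IVM, and 21.6, 34.6 and 52.1 CPM in GV oocytes. It stayed under 2-fold against GV in both MII groups, at -0.76 in CNP_IVM and 0.54 in IVM.

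**Figure D4:**
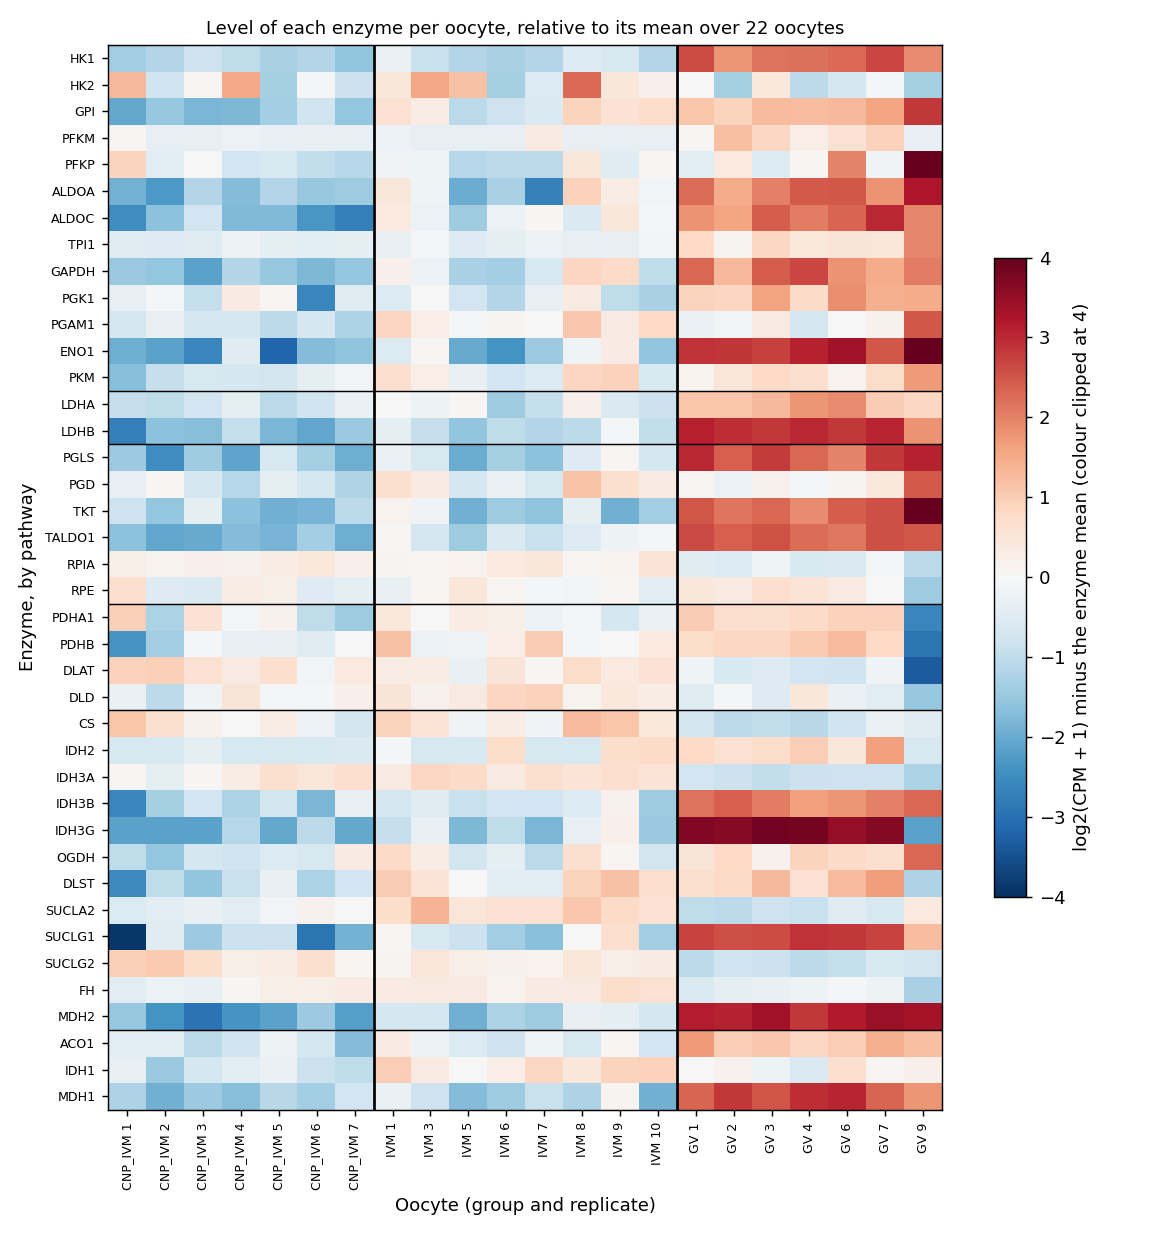
Log2(CPM + 1) of each of the 40 enzymes (rows, by pathway) in each of the 22 oocytes (columns, by group and replicate) minus the mean of that enzyme over all oocytes, with colours limited to 4 on either side. GV oocytes are high for glycolysis, lactate dehydrogenase and several pentose phosphate and citric acid cycle genes, GV replicate 9 departs from the other GV oocytes, and IVM replicates 1, 8 and 9 are higher than other IVM oocytes in many rows.

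The comparison of CNP_IVM with IVM asks how the longer culture with CNP left these transcripts at the same stage of meiosis. All 11 enzymes past 2-fold were lower in CNP_IVM: 6 of glycolysis (GPI, ALDOC, GAPDH, ALDOA, PGAM1 and ENO1), DLST, MDH2 and SUCLA2 of the mitochondrial cycle, TALDO1, and IDH1. For PGAM1, IDH1 and SUCLA2 the highest CNP_IVM oocyte stayed under the lowest IVM oocyte, with log2 differences of -1.22, -1.30 and -1.03. The GV median of each of these 3 lay below the IVM median, and that of the other 8 lay above it. How many of all genes had every CNP_IVM oocyte below every IVM oocyte was not counted.

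Among the other 8, the ranges of CNP_IVM and IVM overlapped. The largest difference was that of GPI, at -1.75, followed by ALDOC at -1.68, DLST at -1.61 and GAPDH at -1.47. ALDOA (-1.38), TALDO1 (-1.32), MDH2 (-1.23) and ENO1 (-1.05) were closer to 2-fold. ENO1 fell under 2-fold, to between -0.82 and -0.99, when CNP_IVM replicate 2, 3 or 5 or IVM replicate 3, 8 or 9 was left out, and SUCLA2 did so, at -0.93 to -0.99, without CNP_IVM replicate 1, 2 or 4 or IVM replicate 3 or 8.

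Scaling changed how many enzymes were called in this comparison. TMM factors moved the median of all genes to -0.05 and left 7 of the 38 enzymes at least 2-fold lower, against 8.41% of all genes. Quantile normalization moved that median to 0.01 and left 4 of 37 enzymes, against 5.96% of all genes. Of all genes past 2-fold, the share that was higher in CNP_IVM was 11.1% as deposited, 31.5% with TMM factors and 40.0% with quantile normalization. The median of the enzymes minus that of all genes was -0.36 as deposited, -0.37 with TMM factors and -0.31 with quantile normalization. GPI, ALDOC, GAPDH and DLST were past 2-fold under each of these scalings. With a pseudocount of 5 CPM, DLST was under 2-fold, at -0.90.

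**Figure D5:**
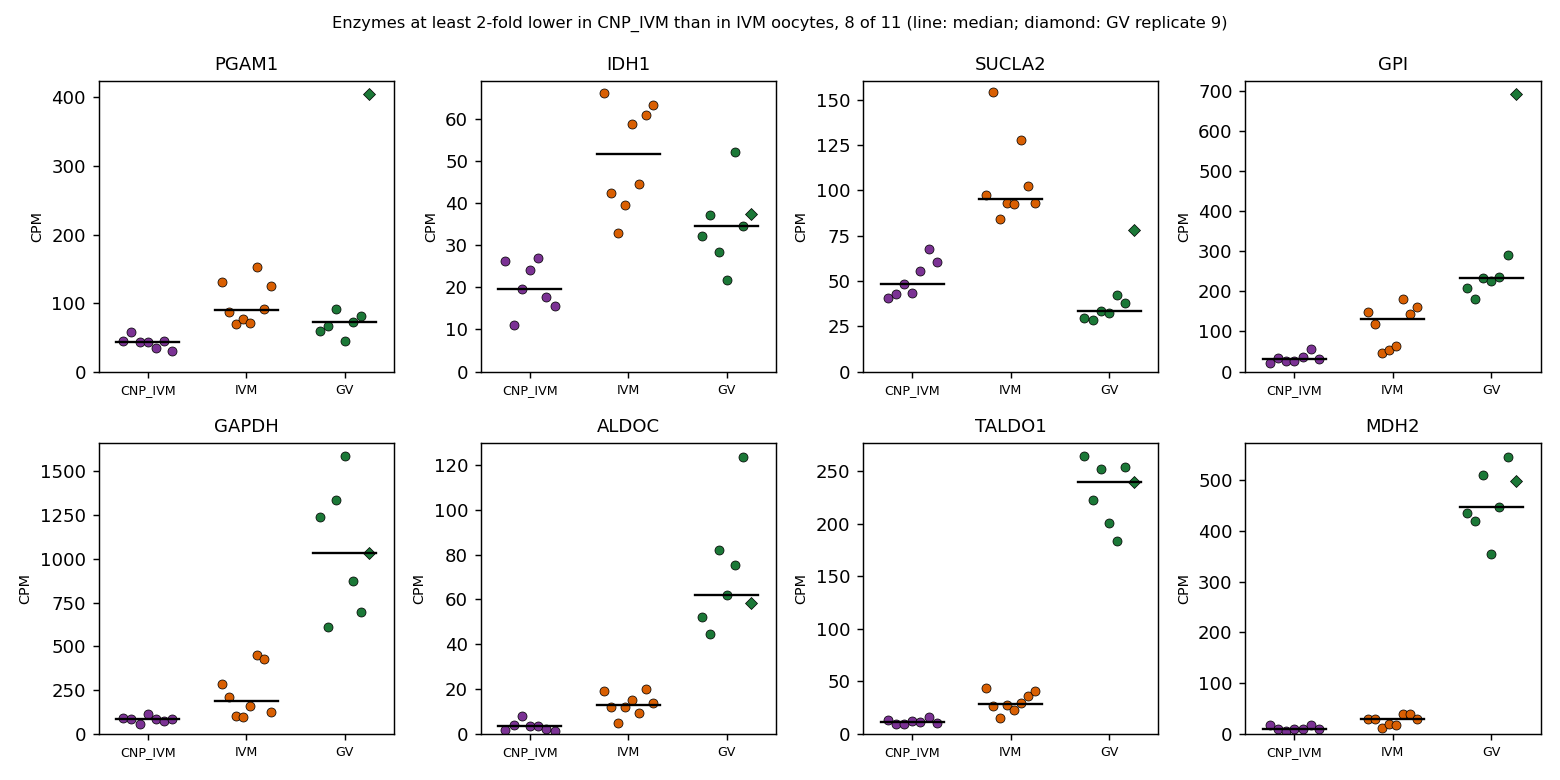
CPM per oocyte of 8 of the 11 enzymes at least 2-fold lower in CNP_IVM than in IVM oocytes, with GV oocytes at the right of each panel, the median as a line and GV replicate 9 as a diamond; vertical axes differ between panels. CNP_IVM oocytes lie below all IVM oocytes for PGAM1, IDH1 and SUCLA2, and the lowest IVM oocytes reach the CNP_IVM range for GPI, GAPDH, ALDOC, TALDO1 and MDH2.

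Levels also differed between oocytes of a group. Over enzymes with a mean of at least 10 CPM in the group, the median coefficient of variation between oocytes was 25.6% in CNP_IVM (20 enzymes), 34.1% in IVM (24) and 32.4% in GV oocytes (34), or 19.6% in GV without replicate 9. IVM replicates 1, 8 and 9 were the highest IVM oocytes for 8, 13 and 11 of the 40 enzymes, and their glycolytic sums were 751, 991 and 872 CPM. The same 3 oocytes had the highest cumulus marker sums of the group, at 611, 735 and 705 CPM, and the most genes at 1 CPM or more, at 10783, 10752 and 10653. Whether these values are connected was not tested. RPIA varied least of all in CNP_IVM, by 6.77%, and SUCLG2 varied least in IVM, by 10.6%.

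Other genes around these pathways were read from a list of 84, of which 68 had a row and 62 passed the filter. In CNP_IVM over GV 4 of the 62 were at least 2-fold higher and 31 lower, against 15.3% and 42.0% of all genes. In IVM over GV 8 were higher and 22 lower, against 15.9% and 33.0% of all genes, so these counts lay near those shares. In CNP_IVM over IVM 2 were higher and 12 lower, against 1.86% and 14.8% of all genes. Without GV replicate 9 the counts over GV were 6 higher and 29 lower in CNP_IVM and 11 higher and 21 lower in IVM, with medians of -0.72 and -0.33. Of all genes, 14.96% were then higher and 40.4% lower in CNP_IVM over GV, and 16.4% and 31.7% in IVM over GV. With all oocytes the medians were -0.92, -0.35 and -0.42 in the same order of comparisons, against -0.61, -0.28 and -0.28 for all genes.

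Fuel entry showed a mixed picture. SLC16A1, a monocarboxylate transporter that carries lactate and pyruvate, averaged 129.9 ± 23.3 CPM in CNP_IVM, 149 ± 20.8 CPM in IVM and 46.9 ± 10.6 CPM in GV oocytes (SD, n = 7, 8 and 7), without overlap with GV. Its chaperone BSG was at 16.6 ± 6.94 CPM in CNP_IVM, 37.9 ± 14.00 CPM in IVM and 62.3 ± 40.2 CPM in GV oocytes. The mitochondrial pyruvate carrier is a pair of MPC1 and MPC2, and both genes were below GV in every MII oocyte: MPC1 had medians of 52.03 CPM in CNP_IVM, 66.1 CPM in IVM and 124 CPM in GV oocytes, and MPC2 had 12.8, 14.2 and 45.8 CPM in CNP_IVM, IVM and GV oocytes. Of the glucose transporters, SLC2A8 differed by -3.92 in CNP_IVM and -3.09 in IVM over GV. SLC2A4 had 7.86 ± 5.43 CPM in CNP_IVM, 1.59 ± 0.896 CPM in IVM and 18.8 ± 8.24 CPM in GV oocytes. SLC2A1 was scarce, with medians of 2.91 CPM in CNP_IVM, 6.95 CPM in IVM and 15.5 CPM in GV oocytes.

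In side branches of glycolysis, PGP, a phosphatase that clears phosphoglycolate, differed most, with at most 2.04 CPM in CNP_IVM and 2.58 CPM in IVM, against at least 33.3 CPM in GV oocytes. PGM1, which links glycogen to glycolysis, averaged 14.5 ± 4.61 CPM in CNP_IVM, 19.97 ± 8.02 CPM in IVM and 180.2 ± 66.96 CPM in GV oocytes. PC, pyruvate carboxylase, averaged 0.881 ± 0.467 CPM in CNP_IVM, 6.34 ± 5.09 CPM in IVM and 25.4 ± 8.99 CPM in GV oocytes. PFKFB1 and PFKFB2 set the level of fructose 2,6-bisphosphate, the activator of phosphofructokinase. PFKFB1 was one of the 2 listed genes at least 2-fold higher in CNP_IVM than in IVM oocytes, at 39.5 ± 18.2 CPM against 16.7 ± 7.88 CPM, with overlap. The second was the transporter SLC2A4. PFKFB2 was at 16.1 ± 5.88 CPM in CNP_IVM, 27.2 ± 15.6 CPM in IVM and 11.9 ± 2.96 CPM in GV oocytes. PGAM5, a mitochondrial phosphatase, averaged 66.7 ± 18.5 CPM in CNP_IVM and 142 ± 74.1 CPM in IVM oocytes.

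Among further genes of the pentose phosphate pathway, TKTL1, a transketolase-like gene, lay on the other side from TKT, at 43.2 ± 5.00 CPM in CNP_IVM, 62.8 ± 19.8 CPM in IVM and 22.95 ± 5.56 CPM in GV oocytes. DERA, deoxyribose-phosphate aldolase, averaged 12.6 ± 7.30 CPM in CNP_IVM, 43.7 ± 19.5 CPM in IVM and 39.4 ± 21.8 CPM in GV oocytes. It was thus lower in CNP_IVM than in either other group by more than 2-fold, with overlapping ranges.

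Pyruvate dehydrogenase is switched off by the PDK kinases and needs lipoic acid on its E2 core. PDK1 averaged 60.3 ± 11.1 CPM in CNP_IVM, 47.9 ± 11.2 CPM in IVM and 20.01 ± 10.7 CPM in GV oocytes, and PDK2 went the other way, at 1.17 ± 0.994 CPM in CNP_IVM, 2.83 ± 2.61 CPM in IVM and 19.7 ± 13.1 CPM in GV oocytes. PDK4 had medians of 4.86 CPM in CNP_IVM, 8.56 CPM in IVM and 0.0877 CPM in GV oocytes, and overlapped in all groups. Its log2 difference in CNP_IVM over GV was -0.02, and 2.09 without GV replicate 9. Of the lipoic acid genes, LIPT2 had 9.10, 12.998 and 17.3 CPM in CNP_IVM, 27.9, 55.2 and 89.8 CPM in IVM, and 113, 129 and 235 CPM in GV oocytes, so its 3 groups did not overlap. LIPT1 averaged 6.02 ± 2.52 CPM in CNP_IVM, 13.4 ± 9.33 CPM in IVM and 61.5 ± 13.4 CPM in GV oocytes.

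In the citric acid cycle outside the 41, SDHB, the iron-sulphur subunit of succinate dehydrogenase, averaged 27.8 ± 5.95 CPM in CNP_IVM, 32.99 ± 12.1 CPM in IVM and 153 ± 29.1 CPM in GV oocytes, and the assembly factor SDHAF1 averaged 0.659 ± 0.640 CPM, 0.867 ± 1.07 CPM and 13.2 ± 3.92 CPM in CNP_IVM, IVM and GV oocytes. SDHA, the flavoprotein, was at 11.5 ± 6.91 CPM in CNP_IVM and 33.7 ± 22.1 CPM in IVM oocytes. Its GV mean of 63.6 CPM held GV replicate 9 at 274 CPM, and was 28.4 ± 10.1 CPM without it (SD, n = 6). The log2 difference of SDHA in CNP_IVM over GV was -2.37 with that oocyte and -1.23 without it, and in IVM over GV it was -0.90 with it and 0.24 without it. ME1, the cytosolic malic enzyme that makes NADPH, was higher in every MII oocyte than in any GV oocyte, at 104 ± 22.5 CPM in CNP_IVM, 155 ± 26.3 CPM in IVM and 42.4 ± 15.96 CPM in GV oocytes. ACLY, which splits citrate in the cytosol, averaged 54.01 ± 14.1 CPM in CNP_IVM, 86.8 ± 49.4 CPM in IVM and 41.1 ± 10.00 CPM in GV oocytes, with overlap.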

How the data were processed

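Single oocytes were amplified with SMART-Seq v4 and tagged with Nextera XT, per the labels' protocols. Tools named, per the submitters' processing notes and without a stated role, are featureCounts 2.0.1, HISAT2 2.2.1, edgeR, FastQC and Trim Galore 0.6.7. The notes give a mouse build, whereas the gene names are cattle symbols and all 40 enzymes match the RefSeq table of ARS-UCD2.0, so no coordinates are used. The authors deposited 1 table named for TPM, but its values are CPM: in each library 100% of them are whole multiples of 1 step (tolerance 0.01 read), so gene length does not enter. Of 29 labelled samples 22 had a column. No libraries of a group were copies (smallest chi-square per degree of freedom 37.96, over genes with at least 20 reads).

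Groups came from the titles. Each group counted as 1 sample because no donor or culture is named, so no count test was run on the recovered reads. From the deposited CPM, genes reaching 1 CPM in 6 or more libraries were kept, and the log2 difference of group means was taken with a pseudocount of 1 CPM, which understates the change of low genes. The steps were tested on simulated reads. Named enzymes are, per pathway and comparison, up to 3 per direction past 2-fold and averaging 10 CPM or more in one of the groups, and GAPDH, LDHA, LDHB, PDHA1, CS and PGD whatever their values; the other members are given more briefly. Other pathway genes followed the same size rule with up to 2 per direction, and MPC1, MPC2, PDK1 and SLC2A1 whatever their values; some genes of that list are not reported here; LDHC, BSG and TKTL1 are also given for groups in which the rule did not name them. The members and lists were chosen with earlier results of these data known. Alternatives were TMM factors (edgeR 4.0.16), quantile normalization (limma 3.58.1), pseudocounts of 0.1 and 5 CPM, no filter, a mean of at least 10 CPM, group medians, means of log2 values, and each oocyte left out in turn. Tables were handled in Python 3.11.15 with pandas 2.3.3. Exact Poisson intervals (95%) and limits for 0 reads (3 reads) cover counting error only, since the reads carry no molecular identifiers.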

Additional observations from a re-analysis of the deposited data

Results flagged for a closer look

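Of 141 sets of values looked at (40 enzymes, the pathway sums and the sum over all enzymes in 3 groups), 26 held an oocyte far from the rest of its group, and chance flags about 1 in 20 such sets. Of the 26, 17 were GV replicate 9.

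GV replicate 9 lay far above the other 6 GV oocytes for 10 enzymes: 690 CPM for GPI (next highest 291), 87.1 CPM for PFKP (7.63), 90.5 CPM for ALDOA (53.7), 4.52 CPM for TPI1 (1.55), 405 CPM for PGAM1 (91.7), 181 CPM for PKM (94.9), 1181 CPM for PGD (286), 60.4 CPM for TKT (21.7), 15.01 CPM for OGDH (5.04) and 78.3 CPM for SUCLA2 (42.3). It lay far below them for LDHB at 139 CPM (next lowest 284), PDHA1 at 0.599 CPM (14.2), PDHB at 0 CPM (11.7), DLAT at 0.545 CPM (8.001), IDH3G at 0 CPM (49.7) and SUCLG1 at 33.8 CPM (86.4), and for the summed pyruvate dehydrogenase complex at 15.4 CPM (66.7). This oocyte carries the treatment label of in vitro maturation under a GV title, had the highest cumulus marker sum of all oocytes (1279 CPM), and had 0 reads for genes that the other GV oocytes all expressed. The part of these in its values was not tested.

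In CNP_IVM, replicate 1 stood apart for PFKM (0.317 CPM, next 0.0514) and PFKP (3.09 CPM, next 1.15), and replicate 3 for ALDOC (8.11 CPM, next 3.90) and IDH2 (0.205 CPM, next 0.056). CNP_IVM replicate 4 did so for TPI1 (0.231 CPM, next 0.0861) and ENO1 (20.9 CPM, next 8.99), and replicate 7 for OGDH (3.11 CPM, next 1.26). In IVM, replicate 7 was apart for PFKM (0.595 CPM, next 0.0535) and replicate 9 for IDH3B (6.27 CPM, next 3.60).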

How the results depend on the processing

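Against GV, the counts of enzymes past 2-fold were within 1.5 times of the reported ones, and no median or called difference changed sign, under each of the alternatives run, but single calls ended or were gained. For CNP_IVM over GV, TMM factors ended the calls of PGAM1, PKM, PGD and PDHB and added HK2 and RPIA, and quantile normalization ended those of PGK1, PKM, PDHB, OGDH and DLST and added HK2, with the values given beside each enzyme above. A pseudocount of 5 CPM ended those of PDHB, DLAT, OGDH and IDH2 (-1.38 as reported, -0.41 with it). The median log2 difference in CNP_IVM over GV was -1.79 as reported and -1.11 with quantile normalization. In CNP_IVM over IVM the 11 enzymes at least 2-fold lower became 7 with TMM factors, 4 with quantile normalization and 7 with a pseudocount of 5 CPM, and the median of -0.65 became -0.42, -0.30 and -0.36 in that order. The cause was not tested. PFKP against GV rests on GV replicate 9, and the values of GPI, DLAT, OGDH, PGAM1 and PGD without it stand beside the results above.

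Leaving out 1 oocyte at a time gave 23 to 26 enzymes lower and 3 to 4 higher in CNP_IVM over GV (medians -1.89 to -1.59), 17 to 20 lower and 4 to 6 higher in IVM over GV (medians -1.30 to -0.85), and 9 to 13 lower and 0 higher in CNP_IVM over IVM (medians -0.74 to -0.58). No paired analysis was possible because no donor or culture is named that would link oocytes of different groups.

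The main limits are that donors and cultures are not named, that CNP and 6 more hours of culture cannot be told apart, and that levels are shares of a poly(A)-primed library. Low read counts limit PFKM, PFKP, TPI1, IDH2, HK2 and, at MII, IDH3G and TKT. Each had 0 reads in at least 1 MII oocyte, which for IDH3G was so in CNP_IVM only.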
